A study of Homo sapiens with 12 samples.

Results

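The amino acid transporter families were described at the RNA level in TE-1, an established human cell line of oesophageal cancer. Members were the protein-coding genes whose symbol places them in the SLC1, SLC3, SLC6, SLC7, SLC36, SLC38 or SLC43 family, and 59 of the 19771 protein-coding genes in the deposited table met that rule. Of these, 23 had a mean of at least 1 FPKM and were among the 10925 genes tested. FPKM is the number of fragments per kilobase of transcript, scaled to the library's mapped fragments. The 12 libraries formed 4 groups of 3: OE_IFI6 (a vector that overexpresses IFI6, an interferon-induced gene), OE_control (its control vector), sh_IFI6 (an interference vector against IFI6) and sh_control (its control vector). All cells received a vector by transfection, grew in DMEM with serum, and were harvested 48 h later. Nothing in the labels ties the 3 libraries of a group to independent cultures. The p-values therefore reflect the variation among these libraries alone, which may be technical.

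Amino acids cross membranes on carriers that differ in substrate and in driving force. The SLC3 proteins are heavy chains that bring SLC7 light chains to the cell surface, where the pair exchanges one amino acid for another, while other SLC7 proteins carry cationic amino acids without a heavy chain. SLC1, SLC6 and SLC38 carriers use the sodium gradient, some SLC36 carriers use protons, and SLC43 carriers are facilitators. The families also hold carriers of taurine, creatine and nucleobases. Several members are known targets of ATF4, the transcription factor that cells make more of when amino acids run short.

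Each library's protein-coding FPKM added up to between 325877 and 357145, and the transporter families took 0.485% to 0.666% of it. A step size was fitted to the low values of each library. At 1 FPKM a transcript of 1 kilobase held 29.8 to 38.4 such fitted steps, so the largest fit was 1.29 times the smallest. Only 27.3% to 30.2% of a library's low values lay within 1% of a whole step, and most did not. The number of reads per library is unknown here, and values near 1 FPKM carry the largest counting error. IFI6 had 309, 268 and 358 FPKM in OE_IFI6, against 27.3, 17.9 and 28.8 FPKM in OE_control. It had 15.1, 13.9 and 14.7 FPKM in sh_IFI6, against 24.9, 24.1 and 21.2 FPKM in sh_control. Neither pair of groups overlapped, and an exact permutation test, two-sided, gave its smallest possible p of 0.1 for each. In limma IFI6 rose by 3.62 on the log2(FPKM + 1) scale with overexpression (adjusted p = 4.73e-07), while knockdown gave -0.65 (SE 0.17), which missed the threshold (adjusted p = 0.818). The 3 OE_control libraries stood apart: on the first principal component, with 23.1% of the variance, they lay at -30.6 to -22.2 and the other 9 libraries at 5.9 to 11.3. Summed heat shock transcripts (HSPA1A, HSPA1B, DNAJB1, HSPH1, HSPA8, HSPB1) were 717 to 831 FPKM in OE_IFI6, against 2060 to 2440 FPKM in OE_control. They were 762 to 1220 FPKM in sh_IFI6, against 666 to 711 FPKM in sh_control. The part of this state in the differences below was not tested. Of 10 squamous epithelial markers, KRT5, KRT6A, SOX2 and EPCAM were listed at 0 in all 12 libraries and 1, KRT17, was tested. Over the whole list the sum was 0.942 to 1.74 FPKM in OE_IFI6, against 3.03 to 4.59 FPKM in OE_control. It was 0.943 to 1.86 FPKM in sh_IFI6, against 0.907 to 1.1 FPKM in sh_control. KRT17 held most of that sum, with means of 0.724 FPKM in OE_IFI6 and 3.65 FPKM in OE_control. KRT13 went the other way, with means of 0.364 FPKM in OE_IFI6 and 0.166 FPKM in OE_control. Sums over 6 fibroblast markers were 5.64 to 8.31 FPKM and over 6 immune and endothelial markers 0.761 to 1.93 FPKM across libraries.

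A few members held most of the transporter RNA. The heavy chain SLC3A2 averaged 763 FPKM over the 12 libraries, its light chain SLC7A5 445 FPKM and the sodium-coupled neutral carrier SLC38A2 386 FPKM. These 3 genes made up 74.8% to 82.1% of the families' summed FPKM in a library. The nucleobase carrier SLC43A3 followed at 165 FPKM, then SLC38A1, a glutamine carrier, at 80.6 FPKM and SLC1A5, a glutamine and neutral amino acid exchanger, at 49.99 FPKM. SLC38A10 had 34.3 FPKM, the taurine carrier SLC6A6 19.4 FPKM, the glutamate carrier SLC1A3 18.9 FPKM and the cationic carrier SLC7A2 11.1 FPKM. The remaining 13 tested members lay between 1.18 FPKM (SLC36A1) and 9.80 FPKM (SLC7A6). All levels here are FPKM, a scale per length, but each is a sum over the gene's transcripts, so the order of neighbours is approximate. SLC43A3, for example, drew 37.6 and 33.1 FPKM of its mean from transcripts of 587 and 539 bases.

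The other 36 members had a mean under 1 FPKM. SLC6A16, SLC7A11, SLC6A17 and SLC7A8 lay between 0.279 and 0.904 FPKM, and 32 had a mean under 0.1 FPKM. Of those, 15 were listed at 0 in every library, among them SLC7A3, SLC36A2 and 9 members of SLC6. SLC3A1, the heavy chain of kidney and gut, reached at most 0.17 FPKM. SLC6A14, a broad carrier of neutral and cationic amino acids, reached at most 0.028 FPKM. The SLC6 family was the largest and the least represented, with 3 of 19 members tested, against 4 of 7 in SLC1, 4 of 13 in SLC7, 6 of 11 in SLC38, 2 of 4 in SLC36, 1 of 2 in SLC3 and 3 of 3 in SLC43.

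**Figure D1:**
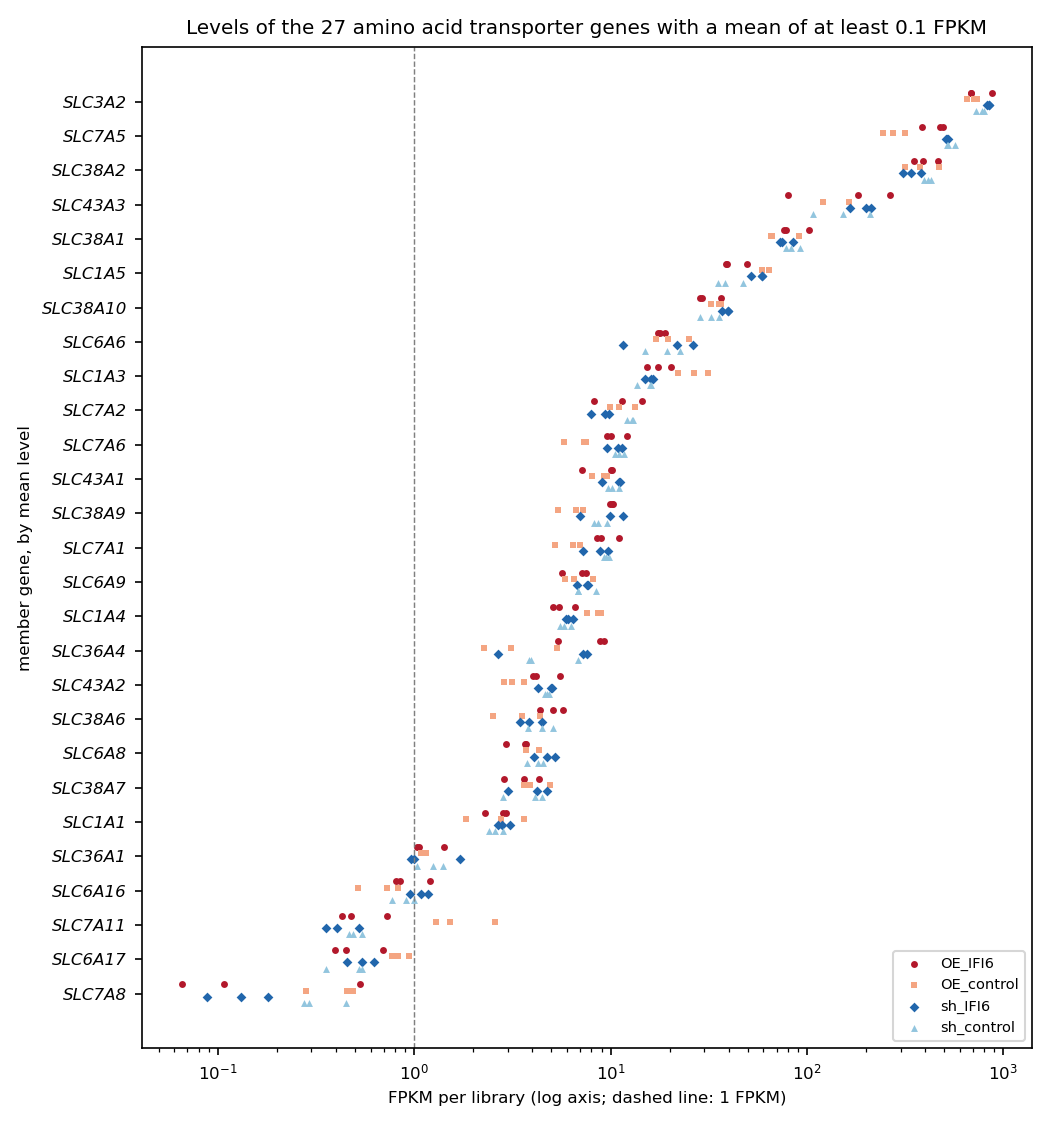
FPKM, on a log axis, of the 27 transporter genes that averaged 0.1 FPKM or more; each point is 1 library, coloured by group, and the dashed line marks 1 FPKM. SLC3A2, SLC7A5 and SLC38A2 lie above the rest, and for SLC7A5, SLC7A6 and SLC7A11 the OE_control points lie apart from the other groups.

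The question asked by the design is which genes follow the level of IFI6. With overexpression, 7 of the 23 tested members passed the threshold (limma, adjusted p under 0.05 over all 10925 genes): SLC7A5, SLC7A6, SLC7A1 and SLC38A9 rose, and SLC1A3, SLC1A4 and SLC1A5 fell in OE_IFI6 against OE_control. That is 30.4% of the tested members, and 7.66% of all tested genes passed, 4.1% higher and 3.56% lower. The median change was 0.03 over the members (-0.04 with quantile normalization or without OE_IFI6 replicate 3) and 0.05 over all tested genes on the log2(FPKM + 1) scale, which understates changes of genes near 1 FPKM. Groups did not overlap for 11 of the 23 members, 7 higher and 4 lower in OE_IFI6, and for 23.3% of all tested genes, 13.5% higher and 9.78% lower. The count of 7 depended on the libraries: it was 1 without OE_IFI6 replicate 2 or OE_control replicate 3. It was 3 without OE_IFI6 replicate 1, OE_control replicate 1 or sh_control replicate 2. It was 4 without OE_IFI6 replicate 3, OE_control replicate 2, sh_IFI6 replicate 1, sh_IFI6 replicate 2 or sh_control replicate 1. A fit of only the 6 libraries compared, which has fewer residual degrees of freedom, called 0 members and 1.53% of all genes. All 7 kept their direction there. The like fit of OE_control against sh_control called 3 members and 3.93% of all genes. What caused the loss of calls was not tested. Since these are bulk samples, fewer cells that express a gene and less RNA of it per cell cannot be told apart.

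**Figure D2:**
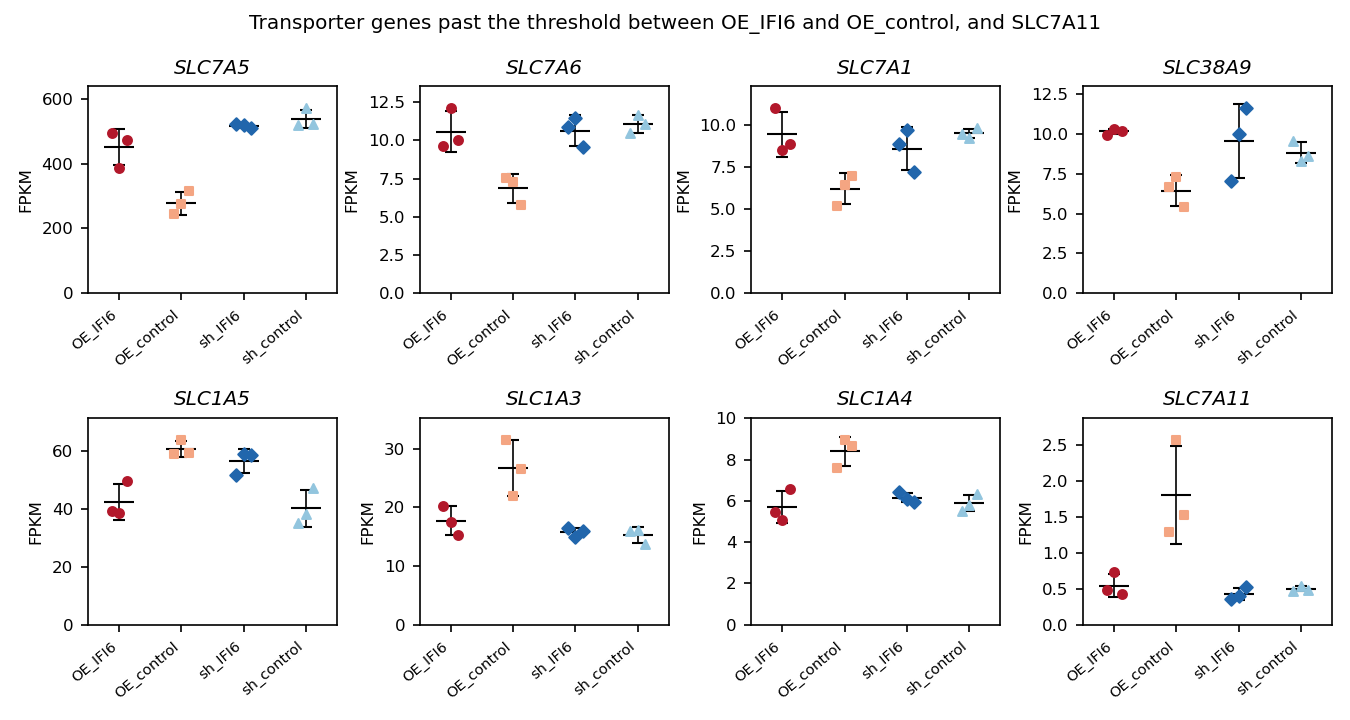
FPKM per library (points), with the mean and SD of each group of 3 (bars), for the 7 members past the threshold between OE_IFI6 and OE_control and for SLC7A11, which was below the filter. In each panel the OE_control points do not overlap the OE_IFI6 points.

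The heavy chain SLC3A2 (chr11:62856102-62888875) had 680, 681 and 870 FPKM in OE_IFI6, against 707, 737 and 656 FPKM in OE_control. These groups overlapped, and the difference was 0.08 (SE 0.11, adjusted p = 0.717). It had 829, 844 and 847 FPKM in sh_IFI6, against 796, 728 and 778 FPKM in sh_control. The sh_IFI6 libraries were all higher, with a difference of 0.13 (SE 0.11) that did not pass (adjusted p = 0.83).

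SLC7A5 (chr16:87830023-87869507), the large neutral amino acid exchanger that brings in leucine, had 493, 387 and 474 FPKM in OE_IFI6, against 244, 274 and 314 FPKM in OE_control. It had 521, 518 and 508 FPKM in sh_IFI6, against 518, 570 and 523 FPKM in sh_control. The 3 OE_control libraries were the lowest of the 12, and OE_IFI6 lay between them and the knockdown arm. SLC7A5 rose by 0.70 on the log2(FPKM + 1) scale in OE_IFI6 against OE_control (SE 0.12, limma adjusted p = 0.0044), a ratio of means of 1.63. This call remained when any of the 12 libraries was left out (adjusted p up to 0.0202), and it was lost in the fit of only 6 libraries (adjusted p = 0.0713). Against sh_control, OE_IFI6 was lower by a difference of -0.26 that did not pass (adjusted p = 0.999). The deposited table of all annotated genes also lists SLC7A5P1 and SLC7A5P2, near-identical copies at means of 3.14 and 3.02 FPKM.

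The ratio of light to heavy chain RNA, SLC7A5 over SLC3A2, was 0.725, 0.569 and 0.544 in OE_IFI6, against 0.345, 0.371 and 0.478 in OE_control. It was 0.628, 0.614 and 0.6 in sh_IFI6, against 0.651, 0.783 and 0.672 in sh_control. In each arm the groups did not overlap, and the exact permutation p was 0.1, the smallest that 3 against 3 libraries allow. The control groups did not overlap either, with means of 0.398 in OE_control and 0.702 in sh_control (exact permutation p = 0.1). Between OE_IFI6 and sh_control the exact permutation p was 0.3.

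SLC7A6 (chr16:68264516-68301823), a light chain that exchanges cationic for neutral amino acids, had 9.61, 12.1 and 10.0 FPKM in OE_IFI6, against 7.54, 7.29 and 5.79 FPKM in OE_control. It had 10.9, 11.5 and 9.55 FPKM in sh_IFI6, against 10.5, 11.7 and 11.1 FPKM in sh_control. The OE_control libraries were again the lowest 3, and the other groups overlapped each other. SLC7A6 rose by 0.56 in OE_IFI6 (SE 0.13, limma adjusted p = 0.0225). Its call was lost without OE_IFI6 replicate 2 or OE_control replicate 3 (adjusted p up to 0.081). SLC7A6OS, which overlaps it on the opposite strand, had 5.70 ± 0.707 FPKM in OE_IFI6 and 6.09 ± 0.972 FPKM in OE_control (SD, n = 3 each). Whether counting used strand is not stated in the labels, so reads of such overlapping genes may not have been separated.

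SLC7A11 (chr4:138164097-138242349) is the light chain of the cystine and glutamate exchanger, through which cells take up cystine for glutathione. It had 0.477, 0.726 and 0.428 FPKM in OE_IFI6, against 1.29, 2.57 and 1.53 FPKM in OE_control. It had 0.358, 0.403 and 0.526 FPKM in sh_IFI6, against 0.468, 0.54 and 0.487 FPKM in sh_control. The OE_control libraries were the highest 3 and the other 9 lay below 1 FPKM. Its mean of 0.817 FPKM kept it out of the test. In the fit without a filter on low values, over 16074 genes, SLC7A11 fell by 0.84 in OE_IFI6 against OE_control (SE 0.14, limma adjusted p = 0.00976). Leaving out each library in turn, a run added after the SLC7A11 values were seen, gave -0.97 to -0.65, with an adjusted p up to 0.0365. With all 12 libraries and no filter, the overexpression effect on SLC7A11 minus the knockdown effect was -0.77 (SE 0.20). That difference did not pass (limma adjusted p = 0.0985). Its protein-coding transcript, SLC7A11-201, is 9645 bases long, and its FPKM equalled 119 to 571 of the fitted steps per library. Whether such a step is a single fragment is not known. The antisense gene SLC7A11-AS1 overlaps it and was above 0 in 4 libraries, at most 0.33 FPKM. SLC7A8, another light chain for neutral amino acids, had 0.53, 0.0659 and 0.108 FPKM in OE_IFI6, against 0.488, 0.281 and 0.454 FPKM in OE_control, and these groups overlapped.

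Of the cationic carriers, SLC7A1 (chr13:29509414-29595688), the general importer of arginine and lysine, had 11, 8.51 and 8.91 FPKM in OE_IFI6, against 5.21, 6.46 and 6.99 FPKM in OE_control. It had 8.88, 9.72 and 7.22 FPKM in sh_IFI6, against 9.48, 9.24 and 9.81 FPKM in sh_control. All 9 other libraries lay above the OE_control ones. SLC7A1 rose by 0.54 in OE_IFI6 (SE 0.14, limma adjusted p = 0.0398). This call was kept only without sh_IFI6 replicate 2 or sh_IFI6 replicate 3 and lost without any other single library (adjusted p up to 0.126). It was also lost with median-of-ratios scaling, with quantile normalization and with no filter. SLC7A2, an arginine carrier, had 8.24, 14.4 and 11.4 FPKM in OE_IFI6, against 11, 13.4 and 9.92 FPKM in OE_control. Those groups overlapped, with a difference of -0.03 (SE 0.17).

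Of the 4 tested SLC1 members, 3 fell in OE_IFI6 against OE_control. SLC1A5 (chr19:46774883-46788594), the glutamine exchanger, had 39.3, 38.6 and 49.7 FPKM in OE_IFI6, against 59.0, 63.9 and 59.2 FPKM in OE_control. It had 51.7, 58.9 and 58.8 FPKM in sh_IFI6, against 35.1, 38.2 and 47.4 FPKM in sh_control. The groups did not overlap in either arm: OE_IFI6 was lower than its control and sh_IFI6 higher than its control. The OE_control libraries were again the highest 3 of the 12, by a narrow margin over sh_IFI6, and OE_IFI6 overlapped sh_control. SLC1A5 fell by 0.51 in OE_IFI6 (SE 0.13, limma adjusted p = 0.039). That call was kept only without OE_IFI6 replicate 3, sh_control replicate 1 or sh_control replicate 3 and lost without any other single library (adjusted p up to 0.118).

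SLC1A3 (chr5:36606355-36688334), a high-affinity glutamate and aspartate carrier best known from glia, had 20.3, 17.5 and 15.3 FPKM in OE_IFI6, against 31.5, 22 and 26.6 FPKM in OE_control. It had 16.4, 14.9 and 16 FPKM in sh_IFI6, against 15.9, 16.1 and 13.7 FPKM in sh_control. The OE_control libraries were the highest 3 of the 12. SLC1A3 fell by 0.56 in OE_IFI6 (SE 0.14, limma adjusted p = 0.0351). The call was kept only without OE_IFI6 replicate 1, OE_control replicate 2 or sh_control replicate 3 (adjusted p up to 0.108 without another library), and it was lost with quantile normalization.

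SLC1A4 (chr2:64988477-65023865), an exchanger of alanine, serine and cysteine, had 5.44, 5.08 and 6.56 FPKM in OE_IFI6, against 7.58, 8.96 and 8.64 FPKM in OE_control. It had 6.42, 6.10 and 5.96 FPKM in sh_IFI6, against 5.52, 5.82 and 6.31 FPKM in sh_control. Here too the OE_control libraries were the highest 3. SLC1A4 fell by 0.49 in OE_IFI6 (SE 0.12, limma adjusted p = 0.0247). The call was lost without OE_IFI6 replicate 1, OE_IFI6 replicate 2, OE_control replicate 2 or OE_control replicate 3 (adjusted p up to 0.08). The fourth tested member, the glutamate and cysteine carrier SLC1A1, averaged 2.70 ± 0.348 FPKM in OE_IFI6 and 2.75 ± 0.907 FPKM in OE_control (SD, n = 3 each), and its groups overlapped. Summed over the family, SLC1 RNA was 64.1 to 74.6 FPKM in OE_IFI6, against 97.2 to 100 FPKM in OE_control. It was 77.2 to 83.9 FPKM in sh_IFI6, against 58.9 to 70.2 FPKM in sh_control.

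In the SLC38 family, SLC38A9 (chr5:55625845-55773194), the lysosomal arginine sensor that signals to mTORC1, had 9.95, 10.3 and 10.2 FPKM in OE_IFI6, against 6.67, 7.28 and 5.39 FPKM in OE_control. It had 7.02, 9.99 and 11.6 FPKM in sh_IFI6, against 9.56, 8.28 and 8.63 FPKM in sh_control. All OE_IFI6 libraries were above all OE_control libraries, and sh_IFI6 ranged across both. SLC38A9 rose by 0.59 in OE_IFI6 (SE 0.16, limma adjusted p = 0.0448). The call was kept only without OE_control replicate 2, sh_IFI6 replicate 1 or sh_IFI6 replicate 3 (adjusted p up to 0.14 without another library). It was also lost with no filter and with quantile normalization. DDX4 overlaps it on the opposite strand.

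The abundant sodium-coupled carriers of the family overlapped between groups. SLC38A2 had 390, 462 and 349 FPKM in OE_IFI6, against 375, 472 and 314 FPKM in OE_control, a difference of 0.06 (SE 0.15). SLC38A1 had 76.7, 103 and 78.4 FPKM in OE_IFI6, against 66.7, 90.8 and 65.8 FPKM in OE_control, a difference of 0.21 (SE 0.15, adjusted p = 0.454). In both genes replicate 2 was the highest library in OE_IFI6 and in OE_control. SLC38A10 had 28.4, 29.3 and 36.5 FPKM in OE_IFI6, against 32.6, 35.6 and 36.5 FPKM in OE_control. SLC38A6 averaged 5.07 ± 0.661 FPKM in OE_IFI6 and 3.48 ± 0.922 FPKM in OE_control (SD, n = 3 each). Its libraries did not overlap, but the difference of 0.45 (SE 0.17) did not pass (adjusted p = 0.126).

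None of the tested SLC6, SLC36 and SLC43 members passed in this comparison. The taurine carrier SLC6A6 averaged 18.1 ± 0.832 FPKM in OE_IFI6 and 20.6 ± 4.16 FPKM in OE_control (SD, n = 3 each). For the glycine carrier SLC6A9 the means were 6.78 ± 0.957 FPKM in OE_IFI6 and 6.86 ± 1.19 FPKM in OE_control (SD, n = 3 each). The creatine carrier SLC6A8 had 3.71, 3.65 and 2.95 FPKM in OE_IFI6, against 3.71, 4.32 and 3.72 FPKM in OE_control, without overlap, although the nearest libraries of the 2 groups are equal to 3 digits. Its difference of -0.15 (SE 0.12) did not pass (adjusted p = 0.515). SLC36A4, of the SLC36 family, had 8.80, 9.26 and 5.41 FPKM in OE_IFI6, against 2.26, 3.11 and 5.31 FPKM in OE_control. Its groups did not overlap by a narrow margin, and its difference of 0.98 (SE 0.35), the widest among the 23 members, did not pass (adjusted p = 0.117). SLC36A1, a lysosomal carrier of small amino acids, averaged 1.17 ± 0.216 FPKM in OE_IFI6 and 1.11 ± 0.0361 FPKM in OE_control (SD, n = 3 each). The branched-chain amino acid facilitator SLC43A2 had 4.17, 4.03 and 5.5 FPKM in OE_IFI6, against 3.61, 3.15 and 2.87 FPKM in OE_control. These groups did not overlap, and the difference of 0.40 (SE 0.13) did not pass (adjusted p = 0.0805). SLC43A1, of like function, averaged 9.13 ± 1.74 FPKM in OE_IFI6 and 8.98 ± 0.818 FPKM in OE_control (SD, n = 3 each). SLC43A3 had 182, 79.6 and 265 FPKM in OE_IFI6, against 164, 120 and 121 FPKM in OE_control, and OE_IFI6 held both its lowest and its highest library.

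The control groups also differed from each other. Between OE_control and sh_control, 6 of the 23 tested members passed (7.52% of all tested genes, 2.75% higher and 4.78% lower): SLC1A3, SLC1A4 and SLC1A5 were higher, and SLC7A5, SLC7A6 and SLC7A1 lower in OE_control. SLC7A5 was lower by a difference of -0.96 (SE 0.12, limma adjusted p = 0.00078) and SLC1A3 higher by 0.76 (SE 0.14, adjusted p = 0.00924). Both held whichever library was left out (adjusted p up to 0.00583 for SLC7A5 and 0.0439 for SLC1A3). SLC7A6 was lower by a difference of -0.63 (SE 0.13, adjusted p = 0.0136), a call lost without sh_control replicate 2 (adjusted p = 0.0622). SLC1A5 was higher by 0.59 (SE 0.13, adjusted p = 0.0217), a call lost without any OE_control library, sh_control replicate 1 or sh_control replicate 2 (adjusted p up to 0.0842). SLC7A1 was lower by a difference of -0.55 (SE 0.14, adjusted p = 0.0368), a call lost without OE_control replicate 1 or 2, sh_IFI6 replicate 1 or any sh_control library (adjusted p up to 0.123). It was also lost with median-of-ratios scaling and with quantile normalization (adjusted p = 0.118 with the second). In the fit of only these 6 libraries the calls for SLC1A4, SLC1A5 and SLC7A1 were lost. SLC1A4 was higher by 0.45 (SE 0.12, adjusted p = 0.0372), a call lost without OE_control replicate 2 or 3, any sh_IFI6 library or any sh_control library (adjusted p up to 0.119). The count of 6 was 3 without OE_control replicate 2 or sh_control replicate 1, and 2 without sh_control replicate 2. SLC7A11, in the fit without a filter, was higher in OE_control by 0.87 (SE 0.14, adjusted p = 0.00869). SLC6A17, a neutral amino acid carrier of synaptic vesicles, averaged 0.847 ± 0.0866 FPKM in OE_control and 0.474 ± 0.101 FPKM in sh_control (SD, n = 3 each). Libraries did not overlap for 9 of the 23 members, 3 higher and 6 lower in OE_control, and for 30.4% of all tested genes, 10.1% higher and 20.3% lower.

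OE_IFI6 against sh_control gave no call. Of the 23 members 0 passed in limma, 0.0183% of all tested genes did, and 1 member, SLC7A5, had an unadjusted p under 0.05. Groups did not overlap for 3 members (SLC38A9 higher, SLC6A8 and SLC7A5 lower in OE_IFI6), and for 9.54% of all tested genes, 3% higher and 6.54% lower. These comparisons share the OE_IFI6, OE_control and sh_control libraries with the ones above, so their values are set side by side only. SLC1A3, for example, differed by -0.56 in OE_IFI6 against OE_control, by 0.76 in OE_control against sh_control and by 0.20 (SE 0.14) in OE_IFI6 against sh_control. For SLC7A5 the same 3 values were 0.70, -0.96 and -0.26.

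**Figure D3:**
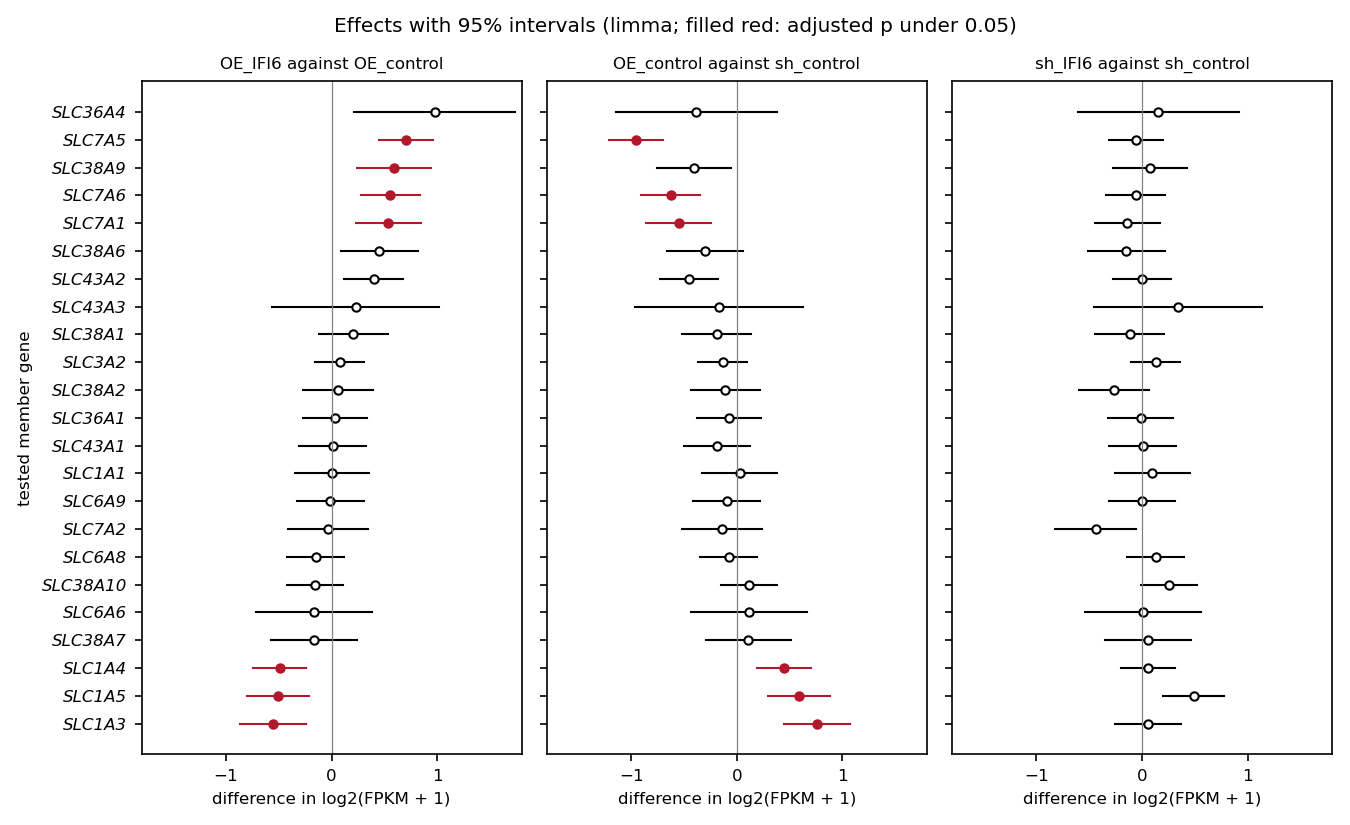
Difference in log2(FPKM + 1) with its 95% interval for the 23 tested members in 3 comparisons, ordered by the first; filled red points passed the threshold. Filled points lie on opposite sides of 0 in the first and second panels, which share the OE_control libraries, and the third panel has none.

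Knockdown gave no call among the transporters. Of the 23 tested members 0 passed in limma, as did 0% of all tested genes, and 2 members had an unadjusted p under 0.05. They were SLC1A5, with a difference of 0.49 (SE 0.13, adjusted p = 0.818), and SLC7A2, with -0.44 (SE 0.17, adjusted p = 0.818). SLC7A2 had 9.39, 7.98 and 9.84 FPKM in sh_IFI6, against 12.8, 13.0 and 12.1 FPKM in sh_control, without overlap. SLC38A10 had 36.8, 39.5 and 39.6 FPKM in sh_IFI6, against 28.6, 32.4 and 35.8 FPKM in sh_control, and SLC38A2 had 340, 310 and 380 FPKM in sh_IFI6, against 428, 414 and 393 FPKM in sh_control. In both genes the groups did not overlap, and neither passed (adjusted p = 0.818 for each). Libraries did not overlap for 5 of the 23 members, 3 higher and 2 lower in sh_IFI6, and for 19.1% of all tested genes, 9.46% higher and 9.61% lower. The median change was 0.01 over the members, and -0.03 to 0.04 when each library was left out. For SLC7A5 the interval of the difference ran from -0.31 to 0.20, and for SLC1A3 from -0.26 to 0.37. Leaving the OE_control libraries out of the fit, an alternative added after they were seen to stand apart, also gave 0 calls among the members.

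The overexpression and knockdown effects differed in 2 of the 23 members, against 2.69% of all tested genes (1.18% higher, 1.51% lower), by a test of the difference itself. For SLC1A5 the overexpression effect minus the knockdown effect was -0.998 (SE 0.19, limma adjusted p = 0.0188), and for SLC7A5 it was 0.76 (SE 0.17, adjusted p = 0.0343). The SLC1A5 call was lost without sh_IFI6 replicate 2 or 3, or sh_control replicate 1 or 2 (adjusted p up to 0.059). That for SLC7A5 was kept only without OE_IFI6 replicate 2, OE_IFI6 replicate 3 or OE_control replicate 3 (adjusted p up to 0.0909 without another library). It was also lost with no filter and with median-of-ratios scaling. The count was 0 without sh_IFI6 replicate 2 or 3, or sh_control replicate 1 or 2. It was 1 without OE_IFI6 replicate 1, OE_control replicate 1 or 2, sh_IFI6 replicate 1 or sh_control replicate 3.

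Transporter RNA was then set beside that of genes that respond to amino acid supply. Of 15 genes of the ATF4 branch, which ATF4 switches on when translation is held back, 14 were tested. In OE_IFI6 against OE_control 9 fell and 0 rose, and the median over the list was -0.68. Over all tested genes 3.56% were lower and 4.1% higher. DDIT4, the list's most abundant gene, averaged 360 ± 91.9 FPKM in OE_IFI6 and 277 ± 37.4 FPKM in OE_control (SD, n = 3 each). Its groups overlapped. DDIT3, a stress-induced transcription factor, fell by 2.002 (SE 0.14, limma adjusted p = 1.23e-05), with 4.11 ± 0.719 FPKM in OE_IFI6 and 19.4 ± 2.27 FPKM in OE_control (SD, n = 3 each). ASNS, which makes asparagine, fell by 1.54 (SE 0.14), CHAC1, which degrades glutathione, by 1.27 (SE 0.13) and SESN2, a leucine sensor, by 1.17 (SE 0.11). The serine synthesis enzymes PHGDH and PSAT1 fell by 0.71 (SE 0.14) and 0.66 (SE 0.10), and the kinase-like TRIB3 fell by 0.83 (SE 0.12). VLDLR fell by 0.76 (SE 0.17), a call lost without OE_IFI6 replicate 1, OE_IFI6 replicate 3 or OE_control replicate 2 (adjusted p up to 0.0569). ATF4 itself had 221, 247 and 276 FPKM in OE_IFI6, against 330, 312 and 332 FPKM in OE_control, and fell by 0.39 (SE 0.10, adjusted p = 0.0325). That call was kept only without OE_IFI6 replicate 3, OE_control replicate 2, sh_control replicate 1 or sh_control replicate 2 (adjusted p up to 0.102 without another library). With quantile normalization the ATF4 difference was -0.27 and the call was lost (adjusted p = 0.0826). The count of 9 was 7 to 9 when each library was left out and 5 in the fit of only 6 libraries. In OE_control against sh_control 9 of the 14 were higher and 0 lower, against 2.75% and 4.78% of all tested genes. At most 1 of the list was lower there under an alternative. In OE_IFI6 against sh_control 0 were called, against 0.0183% of all tested genes. The heat shock sums given above moved with this list as well.

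Among 9 transporter genes known from other work to respond to ATF4, 7 were tested, and they did not move one way. In OE_IFI6 against OE_control SLC7A5 and SLC7A1 rose, SLC1A4 and SLC1A5 fell, and SLC3A2, SLC38A2 and SLC6A9 had differences between -0.01 and 0.08. SLC7A11, below the filter, was lower in OE_IFI6, and SLC7A3 was listed at 0. Summed over the 9, the level was 1590 to 1760 FPKM in OE_IFI6, against 1370 to 1570 FPKM in OE_control, with SLC3A2, SLC7A5 and SLC38A2 setting most of it.

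Of 31 genes that sense amino acids for mTORC1 and GCN2, 29 were tested. In OE_IFI6 against OE_control 3 rose: the Rag GTPase RRAGB by 0.74 (SE 0.13, adjusted p = 0.00523), SESN3 by 0.78 (SE 0.19, adjusted p = 0.0292) and SEH1L, a GATOR subunit, by 0.50 (SE 0.12, adjusted p = 0.0313). SESN2 was the 1 that fell. Over all tested genes 4.1% were higher and 3.56% lower. In the fit of only 6 libraries the 3 higher calls were lost (adjusted p = 0.059 for RRAGB). The higher count was 1 without OE_IFI6 replicate 2 or OE_control replicate 3. It was 2 without OE_IFI6 replicate 1, OE_control replicate 1, OE_control replicate 2 or sh_IFI6 replicate 3, the calls lost being SESN3 without OE_control replicate 1 and SEH1L without the other 3. SESN3 and SEH1L were both lost without OE_IFI6 replicate 2 or OE_control replicate 3. In OE_control against sh_control 1 of the list was higher and 2 were lower, against 2.75% and 4.78% of all tested genes. SESN2 differed there by 1.05, RRAGB by -0.69 and SESN3 by -0.77. That SESN3 call was lost in 5 of the fits that left out 1 library. In OE_IFI6 against sh_control 0 of the list were called, against 0.0183% of all tested genes.

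Of 16 genes of glutathione and glutamine use, 15 were tested and 3 fell in OE_IFI6, against 3.56% of all tested genes. They were CHAC1, CTH and GOT1. CTH, which makes cysteine, fell by 0.41 (SE 0.11, limma adjusted p = 0.0369). GOT1, an aspartate aminotransferase, fell by 0.40 (SE 0.11, limma adjusted p = 0.0455). The CTH call was kept only without OE_control replicate 3 or sh_control replicate 1, and the GOT1 call only without OE_IFI6 replicate 3, so the count was 1 or 2 whichever library was left out. Both calls were lost in the fit of only 6 libraries, that of CTH also with quantile normalization and that of GOT1 also without the trended prior. In OE_control against sh_control the same 3 genes were higher and 0 of the list lower, against 2.75% and 4.78% of all tested genes. CHAC1 differed there by 1.11, CTH by 0.56 and GOT1 by 0.41. That GOT1 call was lost in 8 of the fits that left out 1 library. In OE_IFI6 against sh_control 0 of the list were called, against 0.0183% of all tested genes. Of 21 other amino acid carriers outside the 7 families, 14 were tested and 0 passed, against 7.66% of all tested genes, with a median of 0.23. That count was 1 without OE_control replicate 2 or OE_control replicate 3. In the knockdown comparison 0 members of any of these lists passed, as did 0% of all tested genes.

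**Figure D4:**
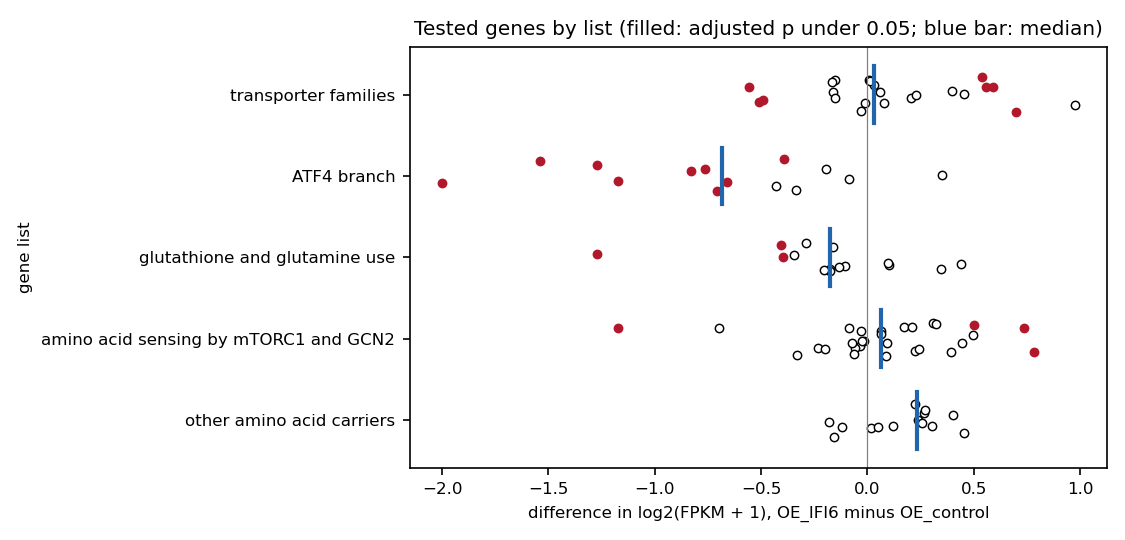
Difference in log2(FPKM + 1), OE_IFI6 minus OE_control, for the tested genes of 5 lists; filled points passed the threshold and the blue bar is the median. The ATF4 branch has its median at -0.68 and the transporter families at 0.03, with filled points on both sides of 0 for the transporters.

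A gene's value in the deposited table is the sum of its transcripts, non-coding ones included, so the share on protein-coding transcripts was examined as a description. SLC7A5-201, the main coding transcript of SLC7A5, had 413 ± 54.1 FPKM in OE_IFI6 and 236 ± 24.8 FPKM in OE_control (SD, n = 3 each). It also had 483 ± 3.20 FPKM in sh_IFI6 and 505 ± 31.2 FPKM in sh_control (SD, n = 3 each). SLC1A5-203 had 41.5 ± 6.14 FPKM in OE_IFI6 and 57.4 ± 1.24 FPKM in OE_control (SD, n = 3 each), and coding transcripts held all of that gene's value. SLC1A3-201 had 12.3 ± 4.73 FPKM in OE_IFI6 and 19.7 ± 7.84 FPKM in OE_control (SD, n = 3 each). SLC7A1-201 had 7.37 ± 1.52 FPKM in OE_IFI6 and 4.82 ± 1.30 FPKM in OE_control (SD, n = 3 each). For SLC1A4-201 the means were 4.66 ± 0.702 FPKM in OE_IFI6 and 6.41 ± 1.10 FPKM in OE_control (SD, n = 3 each).

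Other members were less clearly coding. In SLC7A6 coding transcripts held 37.5% ± 4.34 of the level in OE_IFI6 and 32.7% ± 7.08 in OE_control (SD, n = 3 each), the rest being retained-intron and nonsense-mediated-decay transcripts for the most part. Its coding level was 3.95 ± 0.482 FPKM in OE_IFI6 and 2.29 ± 0.746 FPKM in OE_control (SD, n = 3 each). SLC38A2 coding transcripts held 58.4% ± 1.79 in OE_IFI6 and 61.2% ± 0.495 in OE_control (SD, n = 3 each), and SLC6A6 coding transcripts 38.7% ± 4.57 in OE_IFI6 and 42.3% ± 4.26 in OE_control (SD, n = 3 each). In SLC38A9, 28.9% of the level lay on different transcripts in OE_IFI6 than in OE_control. The same measure was 40.5% in sh_IFI6 against sh_control and 33.4% in OE_control against sh_control, so it was no larger in the overexpression comparison. Its main coding transcript SLC38A9-202 had 4.26 ± 2.86 FPKM in OE_IFI6 and 1.53 ± 0.350 FPKM in OE_control (SD, n = 3 each). In SLC36A4 the short transcript SLC36A4-207, of 888 bases, had 4.81 ± 1.58 FPKM in OE_IFI6 and 1.44 ± 1.88 FPKM in OE_control (SD, n = 3 each). Because FPKM divides by length, a short transcript weighs heavily in such a sum. SLC7A11-202, a nonsense-mediated-decay transcript, held 1.29% of SLC7A11 in OE_IFI6 and 19.8% in OE_control.

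**Figure D5:**
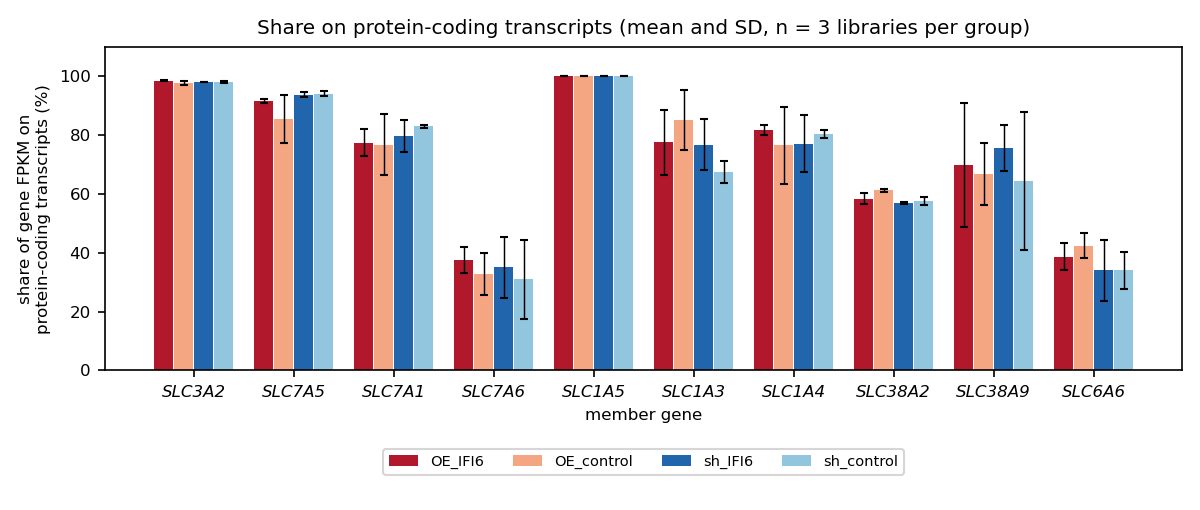
Share of the gene's FPKM on protein-coding transcripts in percent (bars, mean of 3 libraries; lines, SD) for 10 members in each group. SLC3A2 and SLC1A5 are almost wholly coding, while SLC7A6 and SLC6A6 stay below 43% in every group.

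Since ATF4 targets were among the members on both sides, promoters were searched for the core of its binding element, TGATGNAA, on both strands. Promoters were 250 bases before to 50 after a start, from RefSeq (GRCh38.p14), and 44 of the 59 members had at least 1. The motif was in 6 of 66 member promoters (9.09%) and in 1270 of 35116 promoters in all (3.62%). The 6 genes were SLC1A3, SLC1A4, SLC1A5, SLC38A1, SLC3A2 and SLC7A1. A match is a description of the letters only. Windows around the match are shown for the called members, 20 bases to each side with the match in capitals, written in the direction of the gene (in SLC1A4 the motif is on the other strand, so the capitals are its reverse complement), followed by the whole promoter of SLC7A5, which was called whichever library was left out and held no match.
SLC7A1, chr13:29595654-29595701, minus strand: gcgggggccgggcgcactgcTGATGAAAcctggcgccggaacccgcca
SLC1A4, chr2:64989372-64989419, plus strand: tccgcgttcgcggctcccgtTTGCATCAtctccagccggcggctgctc
SLC1A5, chr19:46784884-46784931, minus strand: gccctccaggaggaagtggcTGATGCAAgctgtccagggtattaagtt
SLC1A3, chr5:36596348-36596395, plus strand: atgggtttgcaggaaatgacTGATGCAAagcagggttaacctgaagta
SLC7A5, chr16:87869458-87869757, minus strand: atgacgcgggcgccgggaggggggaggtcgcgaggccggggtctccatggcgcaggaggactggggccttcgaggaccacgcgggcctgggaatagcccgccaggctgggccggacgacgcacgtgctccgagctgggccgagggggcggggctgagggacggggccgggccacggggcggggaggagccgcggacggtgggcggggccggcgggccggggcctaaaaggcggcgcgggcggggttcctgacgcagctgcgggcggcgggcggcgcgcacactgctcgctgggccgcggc

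Starts with a match held different shares of the deposited FPKM. Transcripts that begin within 50 bases of the SLC7A1 start shown held 96.1% of that gene's FPKM, and those at the SLC1A4 start 78.7%. At the SLC1A5 start the share was 0.542%, so most of that gene's FPKM lay on transcripts that began elsewhere. The SLC1A3 start lies before the first base of the deposited gene (chr5:36606355). Its share of 0% was therefore set by the annotation and does not measure use of that start. Of the genes whose used start held the motif, SLC7A1 rose and SLC1A4 fell in OE_IFI6 against OE_control. At the SLC7A5 start shown, transcripts held 92% of the FPKM.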

How the data were processed

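RNA was sequenced in 12 libraries, 3 per group, and groups and replicate numbers come from the sample titles. FPKM values per gene and per transcript were computed by the authors and used as deposited. Per the submitters' processing notes, the tools included HISAT2, StringTie, Cuffdiff and edgeR, with neither version nor role. The build, annotation and strand setting were not given in the labels. Coordinates are those of the deposited table. All 59 members overlapped the same gene in GENCODE (GRCh38), 30 with the same bounds.

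The 10925 genes averaging 1 FPKM or more were tested as log2(FPKM + 1) with limma 3.58.1 (R 4.3.3). The model had 4 group means over 12 libraries, 8 residual degrees of freedom and a trended prior variance. Tests were two-sided, with Benjamini-Hochberg adjustment over all genes tested and a threshold of 0.05. Whole reads could not be recovered from the low values (27.3% to 30.2% lay within 1% of a whole step), so no count test was run. The test was checked on simulated data. Members, gene lists and tests were chosen with earlier results of these data known. Named members were those past the threshold, the 10 highest, and a fixed set of known carriers. SLC36A4, SLC38A6, SLC43A2, SLC6A16 and SLC6A17 were added after their values were seen, as were the members named only as listed at 0. The run that left out each library for SLC7A11 without a filter was also added after its values were seen. SAMTOR was not matched. Alternatives were another pseudocount (0.1), no filter, a minimum of 5 FPKM, other scalings and priors, the replicate block, smaller fits of 6 libraries, leaving out each library, and the table that adds non-coding genes.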

Additional observations from a re-analysis of the deposited data

Results flagged for a closer look

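The overexpression effect minus the knockdown effect was tested in limma over all 10925 genes. Cell type markers aside, it differed from 0 for 2 transporters and for 14 other named genes. For the transporters it was -0.998 for SLC1A5 (effects -0.51 with overexpression and 0.49 with knockdown) and 0.76 for SLC7A5 (0.70 with overexpression and -0.06 with knockdown), with adjusted p of 0.0188 and 0.0343. For IFI6, which the vectors of the 2 arms push in opposite directions by design, it was 4.27 (adjusted p = 3.77e-06). That value checks the labels only. Among genes of the ATF4 branch and of amino acid sensing it was -2.23 for DDIT3, -1.84 for ASNS, -1.24 for CHAC1, -1.11 for SESN2, -0.89 for TRIB3, -0.87 for PHGDH, -0.64 for PSAT1 and 0.80 for RRAGB. When each library was left out, the calls for PHGDH and PSAT1 were lost in 10 of 12 fits (adjusted p up to 0.101 and 0.107) and that for RRAGB in 11 (up to 0.106). The call for TRIB3 was lost without sh_IFI6 replicate 2 or 3 (up to 0.0541). No filter also ended the calls for PHGDH and RRAGB, and quantile normalization that for RRAGB. Among heat shock genes it was -3.87 for HSPA1A, -3.56 for HSPA1B, -3.14 for DNAJB1, -1.73 for HSPA8 and -1.68 for HSPB1. For KRT17, the 1 squamous marker tested, it was -1.64. Its mean reached 1 FPKM only through OE_control, with 3.65 FPKM there. The means were 0.724 FPKM in OE_IFI6, 0.968 FPKM in sh_IFI6 and 0.693 FPKM in sh_control. The filter thus kept KRT17 because of the same difference, so its passing the threshold is not counted as a result. HSPA1A and HSPA1B are near-identical copies, and reads may have been divided between them in either way. The OE_control libraries, which stood apart from the other 9, enter each of these differences, and their part was not tested.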

How the results depend on the processing

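No result that passed the threshold changed direction under an alternative run, while medians over the members that lay near 0 crossed it (-0.04 to 0.12 in OE_IFI6 against OE_control and -0.03 to 0.04 with knockdown). In OE_IFI6 against OE_control the 7 calls among members became 4 with quantile normalization, 0 in the fit of only the 6 libraries compared (fewer residual degrees of freedom), and 1 to 5 when each library was left out. For the difference of the effects, the 2 calls became 1 with no filter, 1 with median-of-ratios scaling and 0 to 3 without each library. In OE_control against sh_control the 6 calls became 3 in the fit of only 6 libraries and 2 to 7 without each library. Knockdown and OE_IFI6 against sh_control stayed at 0 members throughout. What caused the changes in these counts was not tested. Same-numbered libraries had correlated deviations of -0.043 to 0.254, 1 of the 3 overexpression pairs being at 0.087, so the numbers were not taken to pair libraries. Of the 6 overexpression-arm libraries 6 correlated best with their own number, and 0 of the 6 in the knockdown arm, a hint from the data and not the design. With the replicate block, 5 members passed in OE_IFI6 against OE_control, 0 in the knockdown comparison, 1 in the difference of the effects, 5 in OE_control against sh_control and 0 in OE_IFI6 against sh_control. The block ended the calls for SLC38A9, SLC7A1, CTH and GOT1 in OE_IFI6 against OE_control, for SLC7A1, GOT1 and CTNS in OE_control against sh_control, and for SLC7A5, PSAT1 and RRAGB in the difference of the effects. Depth limits members near 1 FPKM, and the 3 libraries per group limit small differences.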
